A study of Arabidopsis thaliana with 5 samples.

Results

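The baseline transcriptome was measured in root cells with an active BRL3 promoter that had received no brassinosteroid. BRL3 encodes a cell-surface receptor for brassinosteroids, the plant steroid hormones. The 200 genes with the highest minimum signal were chosen by their values on the control arrays alone. They are the 200 nuclear probe sets naming exactly 1 gene with the highest minimum log2 value over 3 arrays, out of 13367 such probe sets for 13217 genes and of 22746 non-control probe sets in all. Because these values chose the genes, they are given as a description with no test.

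The material was Arabidopsis thaliana seedlings carrying a reporter, pBRL3:nlsYFP, that puts a yellow fluorescent protein into the nuclei of cells with an active BRL3 promoter. Seedlings aged 6 days received a mock treatment, ethanol in liquid medium for 2 h. Protoplasts were then made from primary root tips and sorted for fluorescence. RNA of the sorted cells was measured on 3 Affymetrix ATH1 arrays, the control replicates 1 to 3. The 2 arrays of seedlings treated with 10 nM brassinolide (BL) carried the same reporter and are not used here. The labels leave unsaid whether each replicate had its own seedlings, and the spread between arrays may be technical.

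Root tissues are arranged as concentric layers around a central vascular cylinder, and all of them descend from stem cells near the tip. BRL3 and its relative BRL1 are known for their expression in vascular tissue and around the root stem cells, where they act beside the main brassinosteroid receptor. In sorted cells the most abundant messages usually come from housekeeping processes such as protein synthesis and energy metabolism, while cell identity regulators lie lower. Enzymatic removal of the cell wall is itself known to raise wound and stress genes. A bulk measurement cannot separate fewer cells of a type from less RNA per cell.

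The 3 arrays did not resemble each other equally. As a description across the 22746 probe sets, Pearson's r was 0.955 for replicates 1 and 3, 0.915 for replicates 2 and 3, and 0.911 for replicates 1 and 2. The array medians lay between 5.57 and 5.66. Poly-A spike-ins are bacterial RNAs added to a sample before labelling, and the median of their 3' probe sets was 4.71 in replicate 1, 8.01 in replicate 2 and 7.39 in replicate 3. The hybridisation spike-in median was 8.49, 10.48 and 9.41 in the same order of replicates. For the actin, GAPDH and ubiquitin control probe sets, a larger 3' excess is a sign of poorer RNA quality. There 3' exceeded 5' on average by 3.36, 3.54 and 3.24 log2 units in replicates 1, 2 and 3. All 3 arrays thus had a 3' excess, and its effect on the ranks was not tested. Replicate 1 thus had the lowest spike-in signal by both measures, and replicate 2 the highest.

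The 200 genes are not the 200 brightest probe sets of the array. The last of them held rank 535 among all probe sets by its minimum, which is the 97.7th percentile. Of the 335 probe sets outside the list with an equal or higher minimum, 299 had no gene in the annotation used here and 30 named several genes. A further 4 named an organelle gene and 2 named a gene outside the reference table. These were not analysed here. Every one of the 200 came from a protein-coding gene, whereas 7.4% of the 13367 single-gene probe sets report pseudogenes. A gene name beyond the locus tag was given for 43 of the 200 (21.5%) and for 1612 of the 13367 (12.1%), and the other 157 are named by locus only, with no role stated. A probe set's level depends on its probes as well as on its transcript, so places in the list are places of signal and not of transcript number.

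The gene with the highest minimum was cICDH, the cytosolic isocitrate dehydrogenase that makes NADPH and 2-oxoglutarate. Its log2 values were 13.49, 13.12 and 13.23 in replicates 1, 2 and 3, and its mean was 13.28 ± 0.189 (SD, n = 3). By its minimum it held rank 1 of all 22746 probe sets as well. On each single array another gene of the 200 was brighter, at 13.50, 13.33 and 13.44 in replicates 1, 2 and 3. AT5G20290 followed with a minimum of 12.95 and AT3G60245 with 12.86, both lowest in replicate 1. COR47, a dehydrin of cold and drought responses, came next with 13.50, 12.67 and 13.01. AT1G22410 had a minimum of 12.46 and AT3G53980 one of 12.31, both set by replicate 3. Of the first 25 genes, 6 had a name: cICDH, COR47, GAPC2, TPI, LCR68 and SAMDC.

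**Figure D1:**
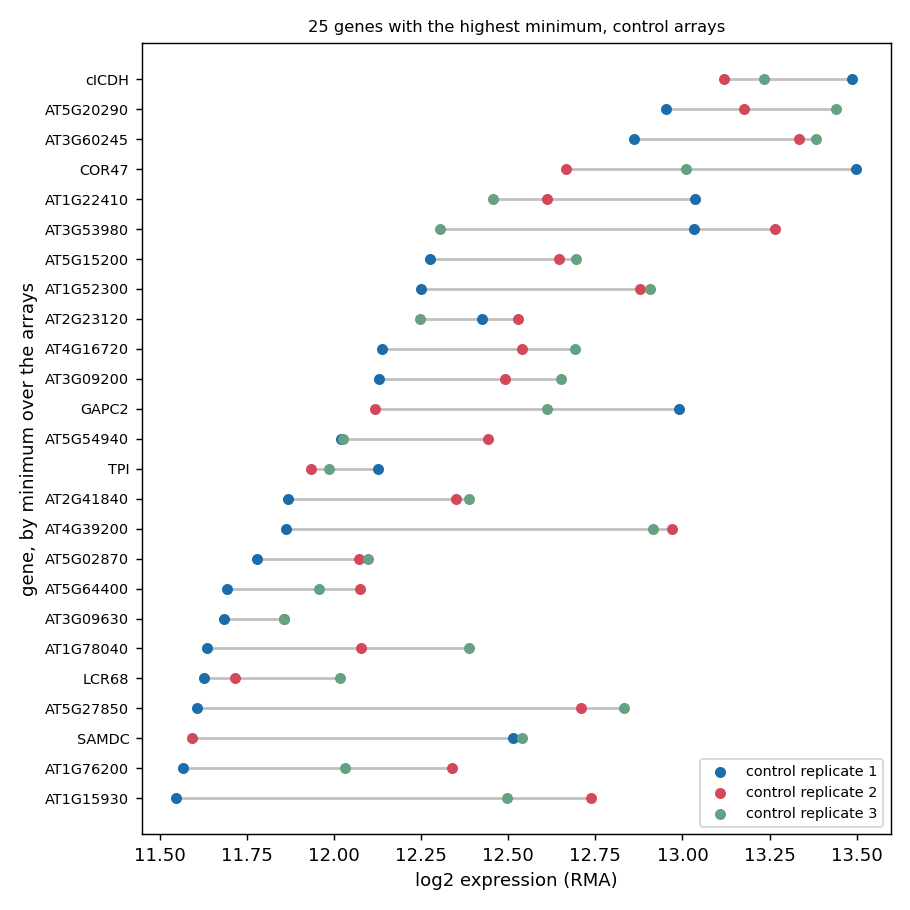
Log2 expression (x axis) of the 25 genes with the highest minimum over the control arrays (y axis, highest at the top), with 1 point per array and a line over their range. Replicate 1 is alone the lowest for 17 of the 25, and cICDH is at 13.12 or more on every array.

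Among the remaining 19 of the first 25, only loci are known here. Their minima ran from 12.95 for AT5G20290 through 12.27 for AT5G15200, 12.25 for AT1G52300, 12.25 for AT2G23120 and 12.14 for AT4G16720 down to 11.55 for AT1G15930. AT3G09630 was the steadiest of the 25, with 11.69, 11.86 and 11.86 in replicates 1, 2 and 3. AT5G27850 was the least steady, with 11.61, 12.71 and 12.83. AT4G39200 and AT1G15930 also ranged over more than 1 log2 unit, by 1.11 and 1.19, and in both it was replicate 1 that was low.

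At the lower edge of the list there was no gap. The last genes inside had minima of 10.11 (AT5G44320), 10.11 (VPS2.1), 10.10 (TIL), 10.10 (WLIM2b) and 10.10 (AT1G20100). The first genes outside had 10.09 (AT4G33550), 10.09 (AT1G76600), 10.08 (AT3G14600), 10.08 (GRXC2) and 10.08 (AT2G47320). Genes outside were at times brighter on average than those inside. AT3G14600 had a mean of 11.04 and missed the list through 10.08 in replicate 1, against 11.72 and 11.32 in replicates 2 and 3.

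Genes of carbon and energy metabolism made up 10 of the 43 named genes, out of 30 in all whose names matched the same words. The words of this class and of the classes below were written with the 200 genes in view, so these shares are no measure of enrichment. GAPC2, a glycolytic glyceraldehyde-3-phosphate dehydrogenase, had 12.99, 12.12 and 12.61 in replicates 1, 2 and 3. TPI, the cytosolic triosephosphate isomerase of the same pathway, was steadier at 12.13, 11.94 and 11.99 (SD 0.0996, n = 3). Mitochondrial functions followed in the list. MPPBETA, a subunit of the peptidase that trims imported mitochondrial proteins, had 12.02, 11.31 and 11.60. MAB1, a pyruvate dehydrogenase subunit, had 11.32, 10.61 and 10.94, and IDH-V, a subunit of the mitochondrial isocitrate dehydrogenase, had 10.57, 10.24 and 10.31. In 7 of the 10, cICDH included, replicate 1 was alone the highest. CYTC-1, a cytochrome c that carries electrons in respiration, was the 1 gene of this class for which replicate 1 was alone the lowest, with 11.43 against 12.20 and 11.93.

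The other 3 genes of this class lay lower in the list. ACLA-1, a subunit of the ATP-citrate lyase that supplies acetyl-CoA in the cytosol, had a minimum of 10.52, and the aldehyde dehydrogenase ALDH6B2 one of 10.27. PMM, the phosphomannomutase on the route to GDP-mannose and ascorbate, had 11.68, 10.11 and 11.84. Its range, 1.72 log2 units, was among the 10 widest of the 200 and came from the low value in replicate 2.

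Genes named for cold, drought or dehydration were 9 of the 43, out of 20 that matched. After COR47 came STZ, a zinc finger regulator active under stress, with 11.82, 11.19 and 11.29 in replicates 1, 2 and 3. RD2 had 11.66, 10.98 and 11.05, and SRC2, a C2-domain protein named for its cold response in soybean, had 11.67, 11.33 and 10.97. Like COR47, these 3 were highest in replicate 1. Dehydrins, which are water-binding proteins of drying or cold cells, did not share 1 pattern over the arrays. AT1G54410, the dehydrin HIRD11, had 10.82 in replicate 1 and 11.87 and 12.00 in replicates 2 and 3. LTI30, another dehydrin, had 11.37, 11.47 and 10.13, so that replicate 3 was the low one. DI21, a drought-induced gene, had 10.25 in replicate 1 and 11.53 and 11.52 in the other two. AT2G44060, listed as LEA26, and the lipocalin TIL had minima of 10.84 and 10.10.

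Proteolysis and secreted proteins gave 5 genes each, out of 69 and 41 that matched. SBT4.12, a subtilisin-like protease, had 12.80, 11.23 and 12.35 in replicates 1, 2 and 3. The aspartic proteinase gene APA1 had 11.96, 11.07 and 11.78, and the serine carboxypeptidase-like gene scpl48 had 11.81, 10.81 and 11.38. All 3 proteases were lowest in replicate 2. CYS1, a cystatin that inhibits cysteine proteases, was near even at 10.63, 10.78 and 10.55, and UBC28, a ubiquitin-conjugating enzyme, had 10.28 in replicate 1 against 11.21 and 11.40.

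Among secreted, wall and defence-type proteins, LCR68, a small cysteine-rich peptide of the defensin type, stood first with 11.63, 11.72 and 12.02 in replicates 1, 2 and 3. The peroxidase gene PRXR1 had 12.51, 11.03 and 12.62, a range of 1.59 log2 units set by replicate 2. PYK10, the beta-glucosidase that fills the ER bodies of root cells, had 11.81 in replicate 1 and a minimum of 10.89 in replicate 3. JAL34, a jacalin-type lectin, had 11.43, 10.81 and 11.11. GH9B7, of the family 9 glycosyl hydrolases, had a minimum of 10.21.

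The class of the nucleus and of translation held 5 named genes, out of 11 that matched, and genes known by locus only were not classed. Its median SD was 0.230, against 0.374 over all 200. Carbon and energy metabolism (0.286), transport (0.294) and secreted proteins (0.311) also lay below 0.374. Cold, drought and dehydration genes were level with it, and proteolysis (0.504) and small-molecule enzymes (0.511) lay above. HTB4, a histone H2B, had 11.16, 11.44 and 11.60 in replicates 1, 2 and 3. EIF4A-2, the RNA helicase of translation initiation, had a minimum of 10.55 and a mean of 10.74, and MAC3B, a subunit of a splicing-associated complex, had 10.60, 10.92 and 11.24. These 3 were lowest in replicate 1 and highest in replicate 3. BZIP53, a leucine zipper transcription factor, was highest in replicate 1, with 12.07, 11.23 and 11.56. AT2G23070, listed as CK2 alpha cp, a catalytic subunit of the protein kinase CK2, had a minimum of 10.73. Its name states neither the nucleus nor translation. It is in this class only because the words CK2 alpha were set under it.

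Small-molecule and redox enzymes outside central metabolism were 5, out of 22 that matched. SAMDC, the S-adenosylmethionine decarboxylase of polyamine synthesis, had 12.51, 11.59 and 12.54 in replicates 1, 2 and 3. PMEAMT, a methyltransferase on the way to choline, had 12.45, 11.48 and 11.67, and HCT, an enzyme of lignin precursor synthesis, had 11.16, 10.26 and 10.83. Replicate 2 was lowest for each of these. MT1C, a metal-binding metallothionein, was level in replicates 1 and 2 at 10.65 and 10.58 and higher in replicate 3 at 11.65. GR1, a glutathione reductase, had 10.50, 10.50 and 10.68.

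Transport, membrane and cytoskeleton genes were 4, out of 28 that matched. AT1G53210, the sodium/calcium exchanger NCL, had a minimum of 11.33, and OEP16-3 one of 10.91. VPS2.1, a subunit of the ESCRT machinery that sorts membrane proteins, had 10.29, 10.29 and 10.11, and WLIM2b, an actin-binding LIM protein, had 10.10, 10.32 and 10.94.

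**Figure D2:**
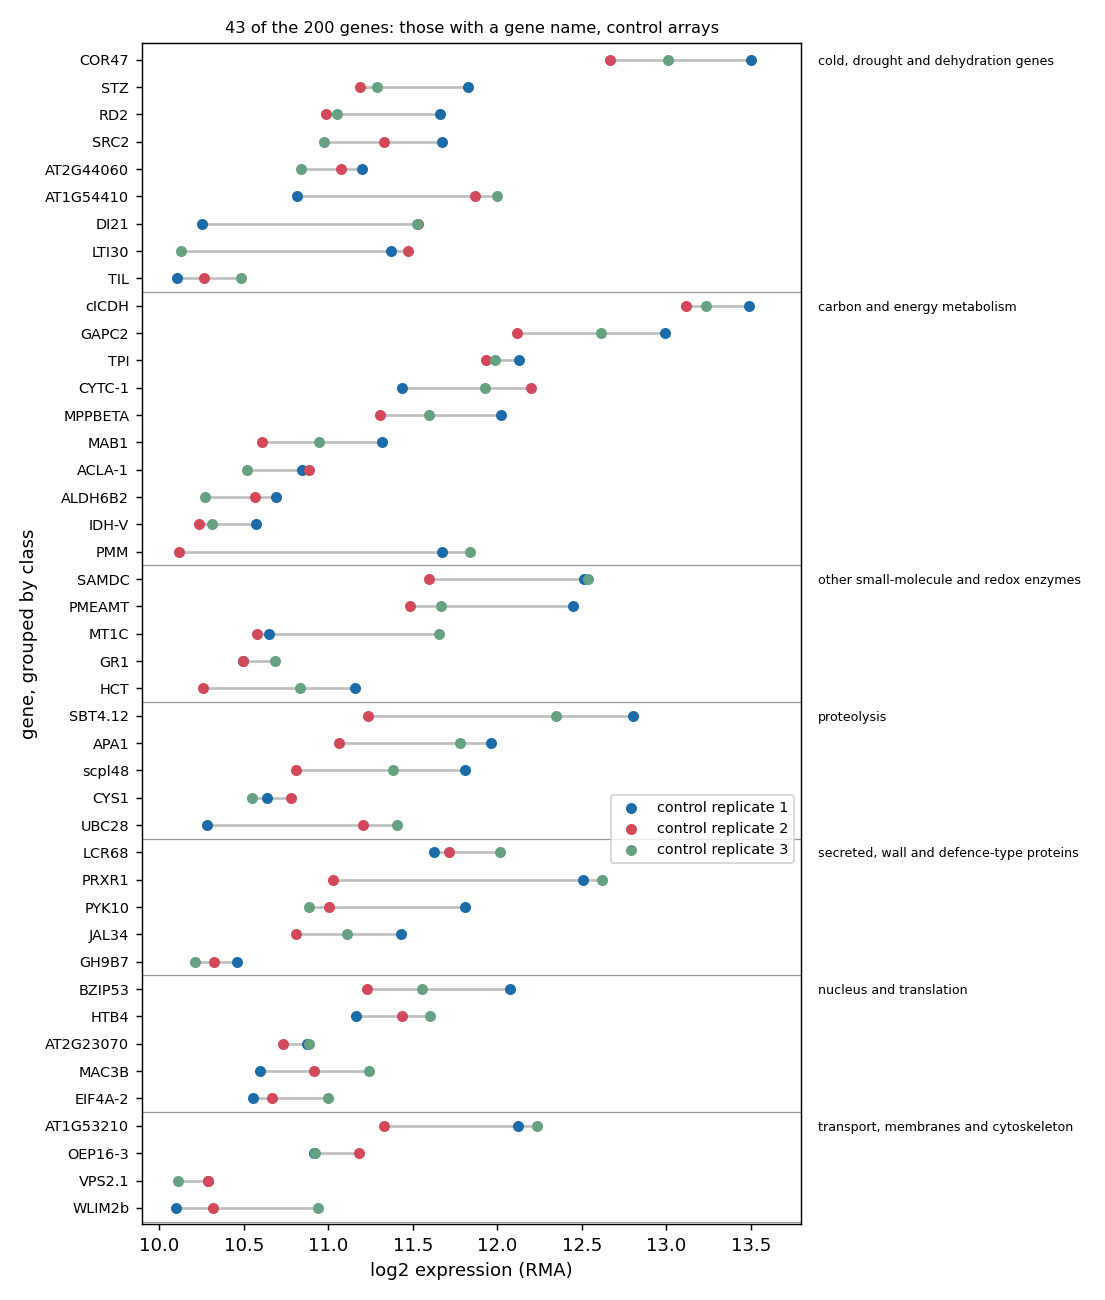
Log2 expression (x axis) of the 43 named genes among the 200, grouped by class (y axis), with 1 point per control array and a line over their range. Replicate 2 is often the lowest in carbon metabolism and proteolysis, and the widest lines are those of PMM, PRXR1 and SBT4.12.

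The 200 genes split by which array was low. Replicate 1 was alone the lowest for 110 of the 200 (55%), replicate 2 for 50 and replicate 3 for 34, against 36.8%, 29.7% and 23.2% of the 13367 single-gene probe sets. The split differed between named and locus-only genes, a division made by the annotation used here. Roles of the locus-only genes were not looked up, so whether the split follows the roles of the genes was not tested. Among the 157 genes known by locus only, replicate 1 was alone the lowest for 99 (63.1%) and alone the highest for 36, whereas among the 43 named genes it was alone the lowest for 11 (25.6%) and alone the highest for 21. The median difference of replicate 1 from the mean of replicates 2 and 3 was -0.34 for the locus-only genes, 0.30 for the named genes and -0.05 over all 13367. Replicate 1 also had the lowest spike-in medians, 4.71 against 8.01 and 7.39 for the poly-A set, and their part in this split was not tested.

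In 28 of the 200 genes replicate 1 lay more than 1 log2 unit below both other arrays, 26 of them known by locus only. In 2, AT3G05500 and AT4G01870, named after their values were seen, it lay that far above both. Over the 13367 probe sets the same counts were 264 below and 255 above, and replicate 2 was that far below both others in 544. AT2G27720 had 10.36, 12.16 and 12.11 in replicates 1, 2 and 3, the widest range of all 200 at 1.80 log2 units or 3.49-fold. AT1G01100 had 10.47, 11.81 and 12.14, AT3G02560 had 10.46, 12.11 and 11.82, and AT2G19730 had 11.03, 12.64 and 12.35. AT3G09500 belonged to the same pattern with 11.20, 12.76 and 12.48. Replicate 1 was the highest, by less than 1 log2 unit over the next array, in AT2G36950 with 11.87, 10.13 and 10.96, and in AT3G19240 with 11.89, 11.23 and 10.30. Replicate 2 lay more than 1 log2 unit below both others in 4 genes, SBT4.12, PRXR1 and PMM among them.

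**Figure D3:**
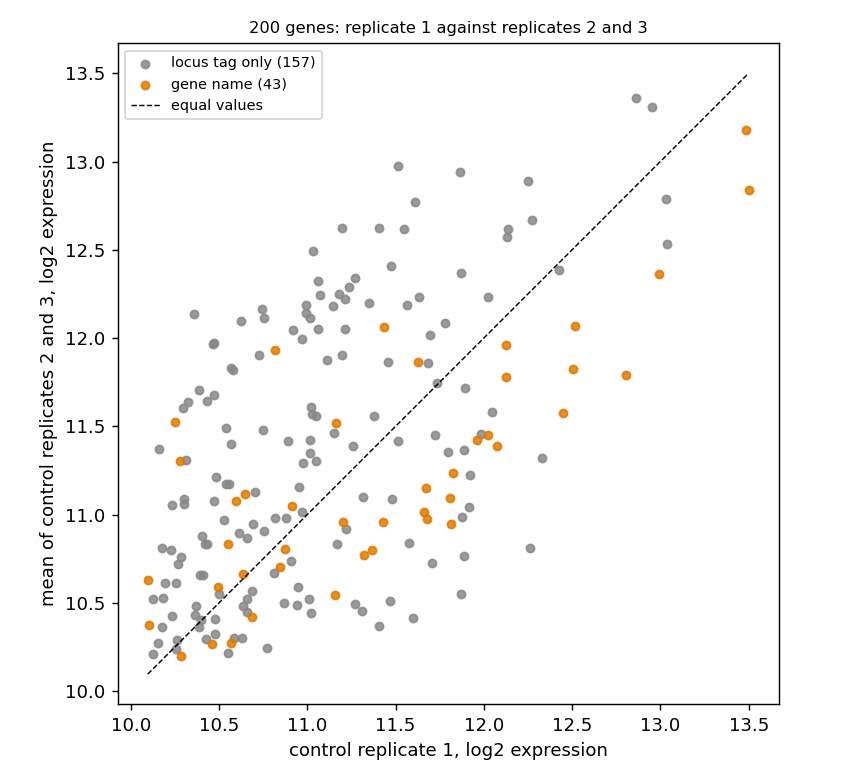
Log2 expression of the 200 genes in control replicate 1 (x axis) and as the mean of control replicates 2 and 3 (y axis), with the dashed line at equal values. Most locus-only genes lie above the line (median difference -0.34 for replicate 1) and most named genes below it (0.30).

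The 200 genes together carried 11.1% of the summed linear signal of all probe sets. Their median was 11.01 in replicate 1, 11.23 in replicate 2 and 11.30 in replicate 3. Over all 200 genes the median SD was 0.374 and the median range 0.72 log2 units, with 65 genes (32.5%) ranging over more than 1 unit. Over the 13367 probe sets the same measures were 0.239, 0.45 and 20.2%. Their array medians were much lower, 5.18 to 5.21, and how spread depends on signal level was not tested. Exactly tied values between control arrays were found in 6.5% of the 200 and in 16.7% of the 13367. As a description across the 200 genes, the correlation between arrays was 0.835 for replicates 2 and 3, 0.578 for replicates 1 and 3, and 0.510 for replicates 1 and 2.

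An array left out of the choice gives values that the choice did not use, although all arrays were normalized together. When the list was drawn from replicates 1 and 2, 136 of its 200 genes (68%) were among the brightest 200 of replicate 3, and 186 were above its 95th percentile. Drawn from replicates 1 and 3, the list had 125 (62.5%) among the brightest 200 of replicate 2 and 175 above its 95th percentile. Drawn from replicates 2 and 3, it had 121 (60.5%) among the brightest 200 of replicate 1 and 166 above its 95th percentile. Single genes fell far below. AT5G51470, at 10.73 in both replicates 1 and 3, had 3.87 in replicate 2, and AT5G51890, at 11.12 and 10.97 in replicates 1 and 2, stood at only the 42.5th percentile of replicate 3. In all, 102 genes were among the brightest 200 of every control array.

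Some properties of the 200 genes were not used to choose them. Their median length on the TAIR10.1 annotation was 1892.5 bp with quartiles at 1505.75 and 2568.25 bp, against a median of 2122 bp and quartiles at 1414 and 3073 bp over all 13367. The shares with a single annotated transcript were close, 58.5% against 61.7%. By chromosome, 51 lay on chromosome 1, 29 on 2, 51 on 3, 25 on 4 and 44 on 5. Chromosome 3 held 25.5% of the 200 and 20.5% of the 13367, and the other shares differed by less than that. A single pair of the 200 were immediate neighbours among protein-coding genes, AT3G02080 and AT3G02090 (MPPBETA).

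Markers of root cell types were placed by the percentile of their mean over the 3 control arrays among all 22746 probe sets. Of 462 genes on 17 lists, 50 had a single-gene probe set, so most well-known markers were not analysed here. Over all 13367 single-gene probe sets the median percentile was 44.7, 20.6% lay above the 75th percentile and 29.2% below the 25th. Of the 50 markers 11 lay above the 75th percentile. Only STZ was also among the 200 genes.

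Of the root cell type lists, procambium and vascular patterning had the highest median percentile, 86.5. LHW, a transcription factor that starts vascular cell divisions, had 8.88, 7.99 and 8.61 in replicates 1, 2 and 3, at the 86.7th percentile. PHV, a homeodomain factor of vascular patterning, had 8.16, 8.42 and 8.82, at the 86.5th. MOL1, a receptor-like kinase of the cambium, had 7.58, 5.46 and 7.35, at the 65.9th. These were the only 3 of 22 genes on the procambium list that were measured, and by their means all lay above the median probe set. SWEET11, a sugar exporter of the phloem, had 9.20, 8.68 and 8.24, at the 88.6th percentile, whereas OPS, a regulator of early phloem, had 4.61, 4.69 and 4.96, at the 37.0th. Their ranges were 0.96 and 0.35 log2 units, against a median range of 0.45 over the 13367 probe sets.

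The pericycle list had 2 measured genes and the xylem list 3. LBD16, a factor of lateral root founder cells, had 9.84, 8.12 and 10.35 in replicates 1, 2 and 3, at the 93.4th percentile and the highest of the cell identity markers. LBD29, of the same family, was at the 49.6th. The xylan synthesis genes of the xylem list were low in replicate 3. GUT2 (IRX10) had 5.87 there and a mean of 6.88, IRX15-L had 7.40, 7.15 and 5.05, and IRX15 had 5.36, 6.02 and 3.86. Their percentiles were 67.0, 62.1 and 42.4, and IRX15 ranged over 2.16 log2 units.

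Stem cell niche genes lay near or below the middle. BBM, an AP2-type regulator of root meristems, averaged 6.08 ± 0.344 (SD, n = 3), at the 55.8th percentile. BRL1, the receptor related to BRL3, had 5.69 in replicate 1 and 5.80 in replicate 3, at the 44.0th percentile over the arrays, but only the 18.9th in replicate 2. JKD, a zinc finger factor of ground tissue and quiescent centre, had 4.31, 4.02 and 4.65 in replicates 1, 2 and 3, at the 28.1st, and AGL42, used as a quiescent centre marker, had 4.17, 4.55 and 4.22, at the 27.8th. BRL3 itself was not analysed here. The label of the cells could therefore be set only against the few measured markers. By their means, 3 of 3 procambium, 2 of 3 xylem, 1 of 2 phloem and 1 of 2 pericycle markers lay above the median probe set. Of the stem cell niche markers 1 of 4 did, as did 4 of 4 cell cycle and 6 of 6 stress genes. The median single-gene probe set stood at the 44.7th percentile.

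By their means, the measured cortex, epidermis and root hair markers lay below the median single-gene probe set, to differing degrees. The 3 cortex markers AT1G62510, AT1G09750 and AT1G62500 were at the 23.5th, 17.5th and 10.9th percentiles, with 31.3 as their highest percentile on any array. ATMYC1, a factor of epidermal fate, was at the 9.2nd percentile with 3.80, 3.80 and 3.77 in replicates 1, 2 and 3. The root hair genes depended on the array. EXPA7, an expansin of growing hairs, had 6.52 in replicate 2 and 4.38 in replicate 3, and EXPA18 had 4.35, 6.17 and 4.66 in replicates 1, 2 and 3, with replicate 2 the highest in both. Their percentiles were 41.7 and 42.1 over the arrays, near the 44.7 of the median single-gene probe set, and 63.5 and 58.8 in replicate 2. TRY, a small MYB repressor, was at the 18.4th percentile. No marker of endodermis or root cap could be matched to a single-gene probe set in the annotation used here.

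Only 4 of the 40 genes on the cell cycle list were measured, and by their means these 4 lay above the median probe set. AUR1, a mitotic Aurora kinase, had 7.70, 8.10 and 8.76 in replicates 1, 2 and 3, at the 83.6th percentile, and AUR2 was at the 74.9th. PRL, a subunit of the complex that licenses DNA replication, was at the 84.9th, and SIM, a cell cycle inhibitor, at the 84.5th with 7.72, 8.91 and 8.19. Each of the 4 was lowest in replicate 1, in AUR2 together with replicate 2.

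The stress and protoplasting list had 4 of 6 measured genes above the 75th percentile. Its median percentile, 90.6, was the highest of the lists by the mean over the arrays, but in replicate 3 it was 72.5, below procambium (86.9), cell cycle (84.6) and pericycle. It was also below procambium with the minimum in place of the mean (79.5 against 86.5) and without replicate 2 (85.7 against 85.8). STZ was at the 99.0th percentile, GSTU25, a glutathione transferase, at the 94.1st, and the calmodulin-like genes CML38 and CML37 at the 91.4th and 89.7th. WRKY6 and WRKY53, transcription factors of defence and ageing, were at the 74.2nd and 70.6th. The calmodulin-like pair was lower in replicate 3, where CML38 had 7.26 against 9.97 and 10.11 in replicates 1 and 2, and CML37 had 7.37 against 9.37 and 9.81. Both groups of this experiment were digested and sorted, so the levels before digestion are not known from these arrays.

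Stomatal and pollen genes lay low, as did ATMYC1 and the cortex markers. The stomatal genes FMA, SPCH, MUTE and STOMAGEN were at the 17.0th, 12.2nd, 8.1st and 1.6th percentiles, and STOMAGEN had 3.53 on every control array. AMS, a pollen development gene, was at the 12.3rd and MGH3, a histone of male germ cells, at the 26.5th. Photosynthesis genes spread widely, with 3 of 9 above the median probe set: LHCB4.1 was at the 74.5th percentile, PSBW at the 57.1st and LHCB4.2 at the 51.8th. The photosystem genes PSAN and PSAE-1 were at the 39.8th and 25.5th, RCA, the Rubisco activase, was at the 37.5th, and PSBY, PRK and SBPASE were at the 24.9th, 26.6th and 16.9th. Of the seed storage list, LEA4-5, OLEO3 and PAP85 were at the 71.6th, 46.8th and 44.2nd. How far a low value lies over background cannot be read from these values, since no detection call was used. CES (CESTA), a transcription factor of brassinosteroid synthesis and response, was at the 5.8th percentile and, with BRL1, 1 of 2 measured genes on the brassinosteroid list.

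**Figure D4:**
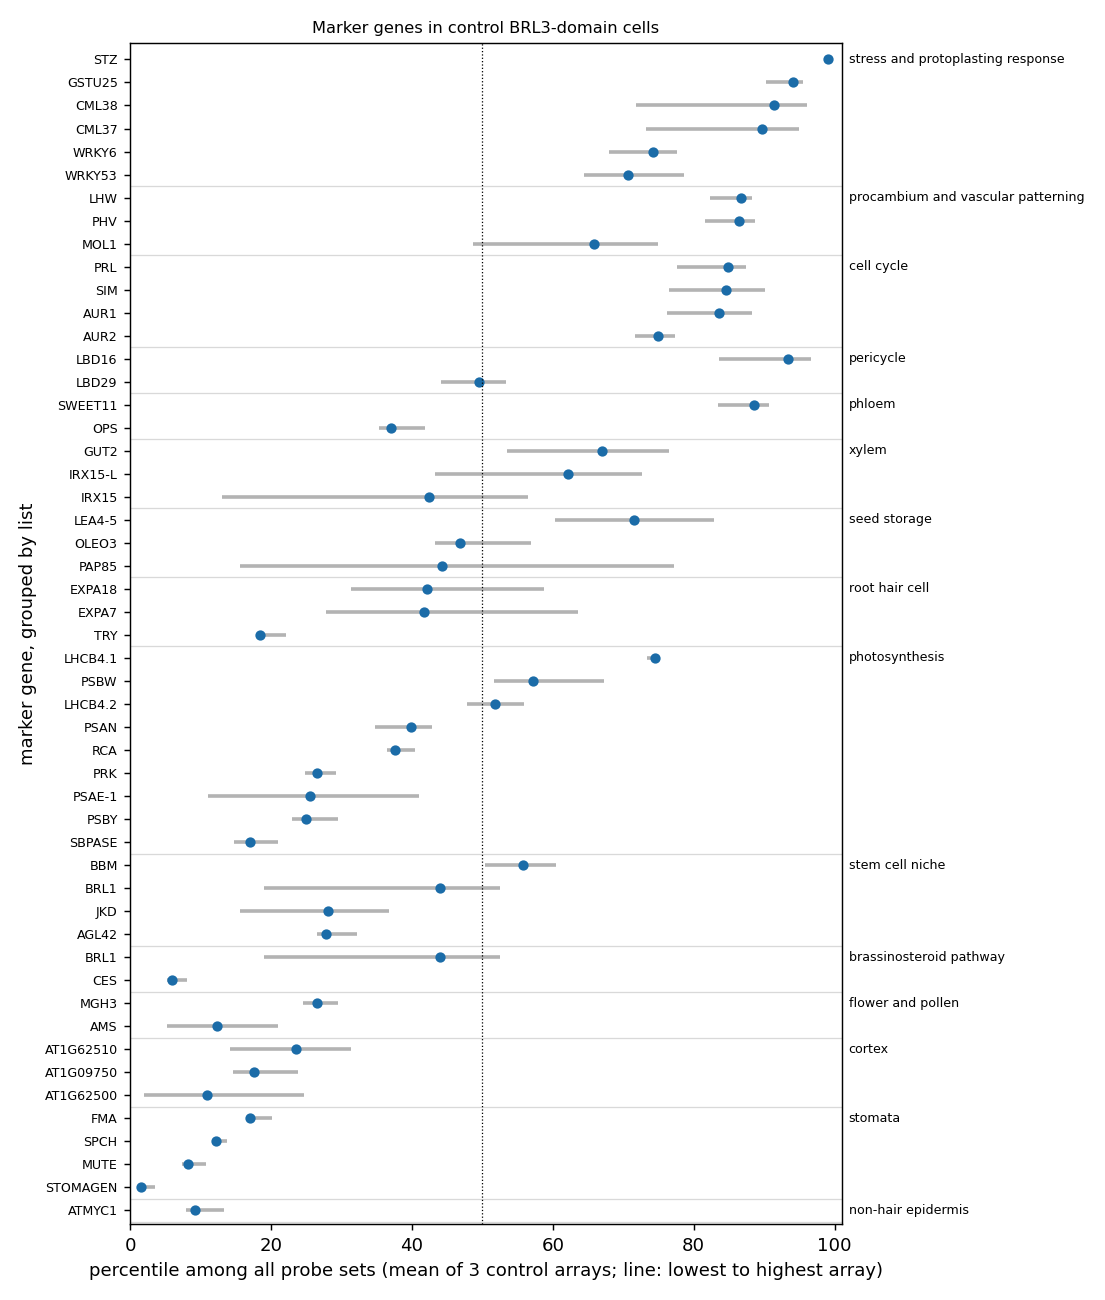
Percentile of the marker genes (x axis) among all probe sets, by list (y axis, lists ordered by their median), as the percentile of the mean over the control arrays with a line from the lowest to the highest array. The points of the stress, procambium and cell cycle lists lie to the right of the 50th percentile (dotted line) and the cortex, stomatal and non-hair epidermis lists to the left.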

How the data were processed

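Transcript levels were taken from the deposited table of 22810 probe sets, whose log2 values the authors made with RMA (background correction, quantile normalization, median polish) in R 4.1.1, per the submitters' processing notes. These also list affy 1.70.0 and limma 3.48.3. No label gives the log base, and 2 was assumed, as RMA writes. All 5 arrays sit in 1 table, so the control values also depend on the BL arrays.

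Here 64 control probe sets were set aside. Gene names came from the platform annotation, updated by gene ID through a RefSeq table of TAIR10.1: 13513 probe sets name 1 gene, 13436 of these matched, and 13367 are nuclear. Ranks, percentiles, SDs and class counts were computed with Python 3.11.15 and pandas 2.3.3, and the ranking was checked on simulated arrays. No test between groups was made. Named genes were the 25 with the highest minimum, 5 on each side of the edge, the 10 with the widest range, class members and the measured markers. Classes were read from name words, chosen after values were seen. The gene choice and the lists were made with earlier results of these data known. Promoter and protein sequences were not used here. The number of arrays limits the precision.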

Additional observations from a re-analysis of the deposited data

How the results depend on the processing

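Without control replicate 1, 2 or 3 the list of 200 held 158 to 180 of the same genes, 38 to 44 of its genes had a name, and 11 to 13 markers lay above the 75th percentile. It held 196 of the same genes after quantile normalizing the control arrays again, 164 when ranked by the mean, 152 by the median, 200 with 1 probe set per gene and 142 by control replicate 1 alone, an alternative chosen after seeing the data. By construction, a list of 100 held 100 of the same genes, 25 of them named, and a list of 400 had 83 named genes. Among the 200 brightest of all probe sets, named or not, 64 were on the list, since most of the others had no single gene in the annotation. In place of 11 markers, 16 lay above the 75th percentile when ranked among single-gene probe sets, 14 by the minimum, 13 by control replicate 1 alone, and 6 when only probe sets above the median were ranked. Of the class counts 11 of 70 moved by more than 1.5 times, and of the list medians 13 of 77 moved by more than their SD over the arrays. The motif and protein length comparisons were not run, as the sequences were not used here. No paired analysis was possible because the results come from no test and use 1 group. With no detection calls used, low percentiles cannot be told from background.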

Other observations

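Gene families, read from gene symbols that share their letters before the first digit and chosen after values were seen, also had a baseline order. Of the families with at least 8 genes, the ALDH aldehyde dehydrogenases lay highest, with a median at the 88.2nd percentile over 8 genes and 6 above the 75th. Vacuolar sorting genes of the VPS type (median at the 82.5th percentile, 10 genes) and ATG autophagy genes (77.7th, 8 genes) followed. All 8 ATG genes lay at or above the 68.2nd percentile. Several families of secondary metabolism and the cell wall lay near or below the middle, which was a median percentile of 44.7 over all single-gene probe sets. The median was the 37.5th percentile for 47 UGT glycosyltransferases, the 29.6th for 20 BGLU beta-glucosidases, the 41.9th for 10 EXPA expansins and the 44.5th for 9 XTH genes. Because only the symbol was read, PYK10, also named BGLU23, was not counted with the BGLU genes.

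The control arrays also differed in genes outside the list. Of the 13367 single-gene probe sets, 111 were more than 2 log2 units higher in replicate 2 than in both others and 121 that much lower, against 16 and 36 in replicate 1 and 20 and 46 in replicate 3. In 89 the range over the arrays was above 4 log2 units. Among named genes with the widest ranges, several were low in replicate 2 alone. GH9B6, of the family 9 glycosyl hydrolases, had 9.21, 3.84 and 10.73 in replicates 1, 2 and 3. GH3.17, of a family that conjugates auxin to amino acids, had 9.56, 5.03 and 9.96, and the auxin gene IAA33 had 8.12, 4.69 and 8.60. GH3.3 ran the other way with 5.40, 8.22 and 4.05. Replicate 3 alone had high values of LCR67, a defensin-type gene, with 3.57, 3.89 and 10.33, of M17 with 3.36, 3.31 and 8.55, and of PAP85, on the seed storage list, with 3.86, 4.11 and 7.70. OLEO3, of the same list, had 5.10, 6.05 and 5.10. Low in replicate 3 were AT5G66390, the peroxidase PRX72, with 9.23, 10.31 and 4.48, and the cinnamoyl-CoA reductase gene CCR2 with 6.92, 9.03 and 4.21. The cause of these differences was not tested.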
